A study of Mus musculus with 4 samples.

Results

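The genes described here encode the precursor hairpins of microRNAs (miRNAs) that are conserved among vertebrates and well known from brain: the let-7 genes and the families miR-7, miR-9, miR-23, miR-24, miR-26, miR-27, miR-29, miR-30, miR-34, miR-98 to miR-101, miR-103, miR-107, miR-124, miR-125, miR-128, miR-132, miR-137, miR-138, miR-153, miR-181, miR-212, miR-218, miR-219, miR-221, miR-222 and miR-338. They were chosen by symbol from the probe sets that name 1 gene; the rule reads no measured value, but the families were listed with earlier results of these data known. Of 35556 probe sets on the array, 21789 name 1 gene and 69 of these were members. The 69 probe sets represent 66 gene symbols, of which 64 are hairpin genes with 1 probe set each. The other 2 symbols are Mir99ahg, with 4 probe sets, and Mir100hg, with 1; they are long noncoding transcripts that carry miR-99a or miR-100 and their neighbours, and their symbols fit the same rule. A further 10 probe sets name a miRNA of these families together with another gene and were not counted. No probe set of the miR-22 family met the rule.

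RNA came from whole brains of adult C57BL/6J males in a model of fetal alcohol exposure (FAE) at the equivalent of human trimester 3. On postnatal days 4 and 7, the alcohol-exposed pups received 2 injections of 2.5 g/kg ethanol separated by 2 h, whereas control pups received saline. The paper states that littermates were matched between treatments by sex and weight. The main fit takes the groups as unpaired. By the sample labels, mice were weaned at day 25 and brains were taken at day 60. The paper gives other days for both. There were 2 arrays per group, named control 1, control 3, ethanol 2 and ethanol 4, and each was hybridized with a pool of RNA from 3 males of different litters, so the spread between arrays is the spread between pools. The treatment entry of the labels contradicts the title and the source name for control 1 and ethanol 4. The groups below follow title and source name, and a difference is always ethanol minus control on the log2 scale.

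A miRNA is cut in steps from a long primary transcript: Drosha with Dgcr8 releases a hairpin in the nucleus, Dicer1 then frees a duplex in the cytoplasm, and 1 strand guides an Argonaute protein to messenger RNAs. Pairing of the seed, bases 2 to 8 of the mature strand, largely decides which messages are bound. Many of these genes lie in clusters that are transcribed together, and many sit inside introns of protein-coding genes. Because the array was made for long transcripts, a probe set on a hairpin gene reports RNA that covers the hairpin, such as its primary transcript, and the mature strand was not measured by itself. A lower signal per cell and fewer cells of the type that makes the transcript cannot be told apart in whole-brain RNA.

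The mature strands of the genes to which the results below refer are printed with the seed in capitals; 58 of the 64 hairpin genes could be matched to a mature sequence in RefSeq (GRCm38.p6). The let-7 strands and miR-98 come first because they share 1 seed over many loci. Their partners in clusters, miR-99, miR-100 and miR-125, follow.
let-7a: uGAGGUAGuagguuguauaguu
let-7c: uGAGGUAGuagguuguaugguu
let-7d: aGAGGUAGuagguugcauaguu
let-7e: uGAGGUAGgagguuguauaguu
let-7f: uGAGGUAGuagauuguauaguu
let-7g: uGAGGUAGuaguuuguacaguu
let-7i: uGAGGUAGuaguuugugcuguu
miR-98: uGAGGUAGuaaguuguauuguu
miR-99a: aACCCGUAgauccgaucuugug
miR-99b: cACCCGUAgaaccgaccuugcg
miR-100: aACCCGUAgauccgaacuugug
miR-125a: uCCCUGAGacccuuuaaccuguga
miR-125b: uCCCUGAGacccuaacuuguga

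The strands below belong to other hairpin genes past the limits of size and p defined below, with a few neighbours and miR-137, whose gene was among the 5 members with the lowest differences. The first, miR-128, comes from the gene with the lowest difference, and miR-9 and miR-338 come from the genes that were higher after a further normalization. miR-27a with miR-23a, and miR-222 with miR-221, are shown as neighbours in clusters whose values lay apart.
miR-128: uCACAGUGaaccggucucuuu
miR-137: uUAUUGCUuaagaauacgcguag
miR-27a: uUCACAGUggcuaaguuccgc
miR-23a: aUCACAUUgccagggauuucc
miR-222: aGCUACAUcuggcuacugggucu
miR-221: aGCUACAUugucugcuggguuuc
miR-30a: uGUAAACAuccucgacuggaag
miR-181a: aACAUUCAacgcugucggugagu
miR-9: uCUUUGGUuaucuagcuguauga
miR-338: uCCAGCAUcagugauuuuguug
The 58 matched genes gave 46 distinct mature sequences and 24 distinct seeds, and 17 of the seeds were shared by 2 or more genes. Within 10 kb of each other on the same strand lay 31 of the hairpin genes, in 14 clusters.

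The hairpin genes were dim on this array. Their mean signal had a median of 5.76 log2 units over the 64 genes, against 6.45 for all probe sets, and 49 of the 64 lay below that level. Genes of other organs such as liver and testis, listed as a floor, had a median of 5.23 and a range of 4.65 to 5.90 over 16 genes. The brightest hairpin genes were Mir181b-1 at 9.05, Mir9-1 at 8.67, Mir181d at 8.38 and Mir128-1 at 8.33, and Mir100hg read 8.92. The dimmest were Mir26a-1 at 4.63, Mir30a at 4.75, Mir132 at 4.76, Mir218-2 at 4.79 and Mir101b at 4.88, of which Mir26a-1 lay below the range of the genes of other organs and the rest inside it. In all, 35 of the 64 hairpin genes lay inside that range. Probe sets differ in how well they bind, so the order of these levels is that of signals and not of RNA amounts.

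**Figure D1:**
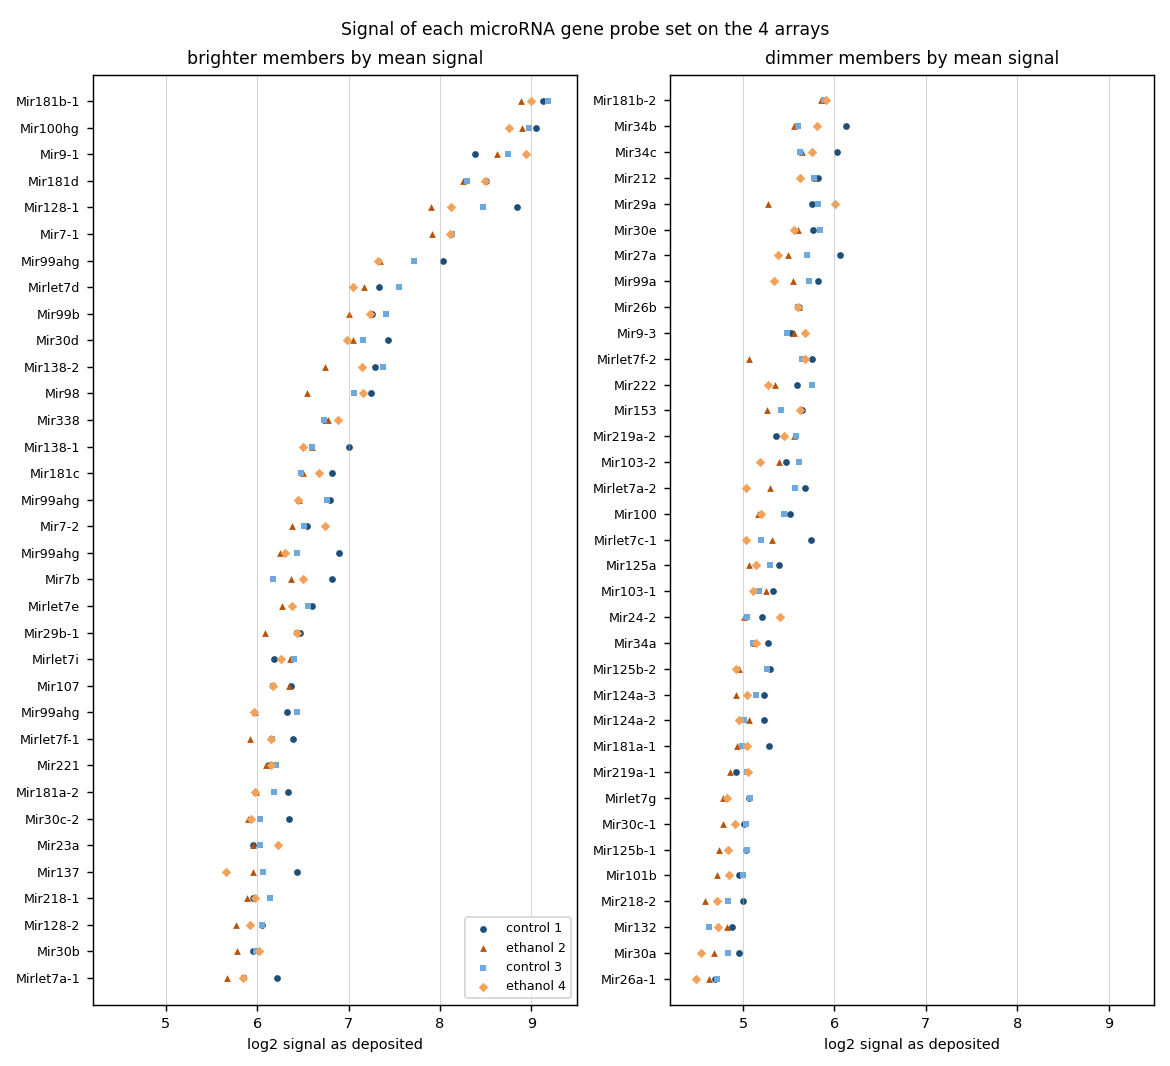
Log2 signal as deposited (horizontal axis) of the 69 probe sets, 1 row each, in order of mean signal, with 1 marker per array. Signals ran from below 5 for Mir26a-1 and Mir30a to above 9 for Mir181b-1, and for most genes an ethanol array is the leftmost marker.

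The arrays themselves differed before any gene was compared. Their medians over all probe sets were 6.61 for control 1, 6.51 for control 3, 6.33 for ethanol 2 and 6.38 for ethanol 4, so 80.2% of all probe sets had a difference below 0 and the median difference was -0.15. Differences are therefore given in 2 forms, as deposited and with the arrays made equal in distribution by quantile normalization, which moved the median difference of all probe sets to 0.00 and the share below 0 to 51.0%. A value with no form named is as deposited. Brain markers were present, for example Snap25, a synaptic vesicle fusion protein, at a mean of 13.3. Pituitary transcripts were low on ethanol 2: growth hormone, Gh, read 6.53 there and 12.19 to 12.26 elsewhere, prolactin, Prl, read 5.05 against 10.10 to 10.60, and Cga, the shared subunit of pituitary glycoprotein hormones, read 5.75 against 9.10 to 9.39. All 9 pituitary markers measured had a difference below 0, with a median of -0.46, and 1 of them was past the limits defined below. The lowest of the 4 arrays was ethanol 2 for 34 of the 69 members and ethanol 4 for 24, and the part of these pituitary signals in the members' differences was not tested.

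As deposited, miRNA genes were lower after ethanol about as often as other genes. The limits of the study's methods, a change of at least 1.2-fold with an unadjusted p under 0.05, are called the limits below, and the p comes from limma. Past them were 14 of the 69 members, all lower, 0 higher and 55 in neither direction. That is 20.3% of the members, against 17.9% of all probe sets past the limits in the lower direction and 2.23% in the higher. The 2 control arrays lay above both ethanol arrays for 38 members, or 55.1%, against 52.7% of all probe sets. That order held for 51.6% of the hairpin genes and 56.2% of probe sets naming 1 gene. The reverse held for 2 members, or 2.90%, against 7.25% of all probe sets and 5.20% of those naming 1 gene. The median difference of the members was -0.20 and 60 of 69 were below 0. After quantile normalization 2 members were past the limits lower and 2 higher, each 2.90%, against 5.87% and 5.71% of all probe sets. Among probe sets naming 1 gene these shares were 3.43% and 3.65%, and 1 of the 64 hairpin genes was lower and 2 were higher. The groups then did not overlap for 16 members with ethanol lower, or 23.2%, and for 10 with ethanol higher, or 14.5%, against 24.9% and 24% of all probe sets. The median was then -0.04, and 20 of the 60 members below 0 as deposited had moved above it. Of the 11 hairpin genes past the limits as deposited, 8 had a mean signal inside the range of the genes of other organs.

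No member passed an adjusted p of 0.05 (Benjamini-Hochberg over all probe sets). The smallest adjusted p was 0.17 as deposited and 0.31 after quantile normalization, and 17 and 4 members had an unadjusted p under 0.05. The other 234 miRNA hairpin genes on the array gave 41 lower, or 17.5%, and 2 higher, with a median of -0.16, and after quantile normalization 8 lower and 12 higher with a median of 0.00. Further settings follow without the share of all probe sets past the limits in each, so their counts cannot be set against the array at large. With the arrays grouped by the treatment entry instead, 0 members were past the limits and 10 of the 14 turned above 0. Leaving out control 1 or ethanol 2 gave 5 and 6 members past the limits, all among the 14. Leaving out control 3 gave 17, of which 8 were among the 14, and leaving out ethanol 4 gave 7, of which 2 were.

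**Figure D2:**
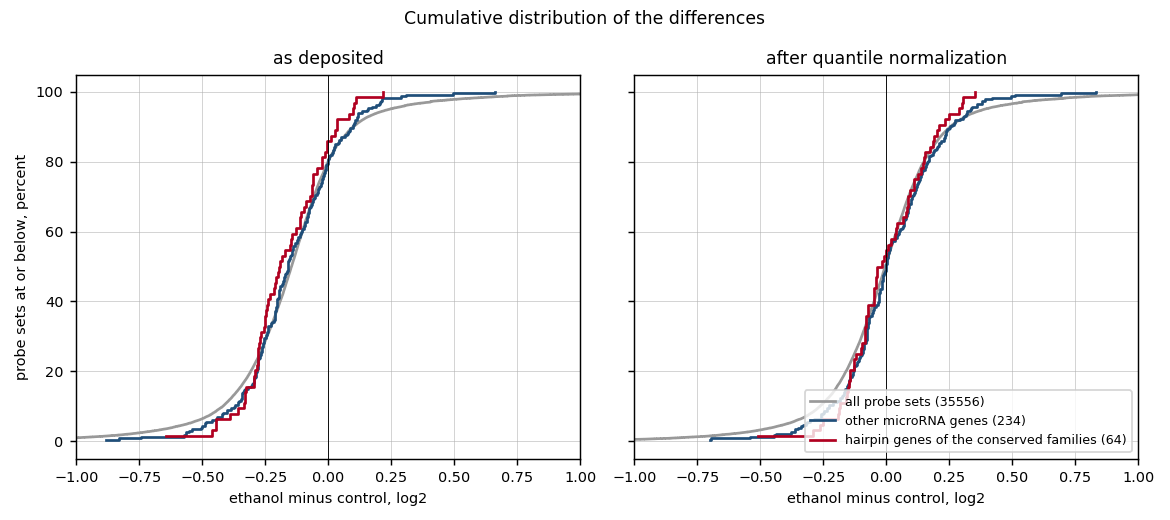
Cumulative percent of probe sets (vertical axis) by difference between ethanol and control in log2 units (horizontal axis, drawn from -1 to 1), as deposited on the left and after quantile normalization on the right, for the 64 hairpin genes, the 234 other miRNA genes and all 35556 probe sets. The 3 curves lie close together in both panels. Their ends are not compared, since the groups differ greatly in size.

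Mir128-1 had the lowest difference of all members and was past the limits in both forms of the data. miR-128 is a miRNA of neurons that is known to restrain neuronal excitability. Mir128-1 read 8.84 on control 1 and 8.47 on control 3, and 7.90 on ethanol 2 and 8.12 on ethanol 4. The groups did not overlap, and the 2 controls were 0.37 apart. The difference was -0.64 (SE 0.17, adjusted p 0.17) as deposited and -0.51 (SE 0.14, adjusted p 0.31) after quantile normalization. It was the only member past a 1.5-fold limit as deposited. The call as deposited was lost without ethanol 2, when the difference was -0.53, and by one-way ANOVA, the methods' test (adjusted p 0.37). The call after quantile normalization was lost without control 1, when the difference was -0.36, and without ethanol 2, when it was -0.41, and with arrays grouped by the treatment entry the difference was 0.08 as deposited and 0.06 after normalization.

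A copy of the gene, Mir128-2, gives the same mature strand from another chromosome and did not show a difference of this size. It was dim, at 6.05 on both controls, 5.76 on ethanol 2 and 5.92 on ethanol 4. Its difference was -0.21 (SE 0.10, adjusted p 0.28), below that of Mir128-1 in size, and -0.01 after quantile normalization. The hairpins are shown because the arms that make miR-128, in capitals, are alike while the rest differs; 55 of 77 aligned positions, or 71.4%, were identical. Mir128-1 lies at chr1:128202361-128202430 on the plus strand and Mir128-2 at chr9:112118636-112118711 on the minus strand (GRCm38.p6).
Mir128-1: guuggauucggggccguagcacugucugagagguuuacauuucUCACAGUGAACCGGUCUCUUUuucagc
Mir128-2: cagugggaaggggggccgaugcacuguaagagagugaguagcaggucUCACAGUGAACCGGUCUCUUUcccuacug
The genes that hold them had values nearer 0, a contrast that was not tested itself. R3hdm1, whose span holds Mir128-1 on the same strand, read 11.65 and 11.56 on the controls and 11.55 and 11.50 on ethanol 2 and ethanol 4, a difference of -0.08 (SE 0.09, adjusted p 0.60). Arpp21, a phosphoprotein of neurons that is regulated by cyclic AMP and whose gene holds Mir128-2, had a difference of 0.03 (SE 0.09).

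**Figure D3:**
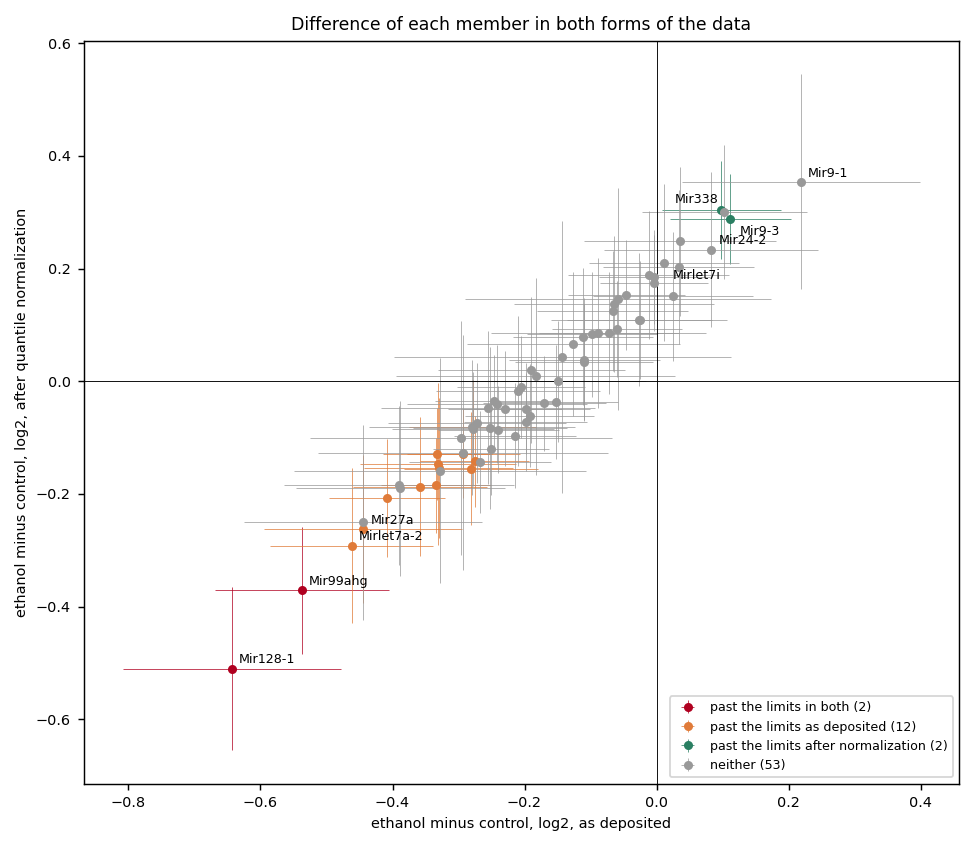
Difference between ethanol and control in log2 units for each of the 69 members, as deposited (horizontal axis) and after quantile normalization (vertical axis), with bars of 1 standard error. Mir128-1 and 1 probe set of Mir99ahg are past the limits in both forms, 12 further members as deposited alone, and Mir338 and Mir9-3 after normalization alone.

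The let-7 genes were mostly lower on the ethanol arrays, as were most probe sets. let-7 miRNAs accumulate as cells differentiate and repress growth genes such as Hmga2, Lin28b and Ras genes, and miR-98 shares their seed. Of the 10 let-7 and miR-98 genes, 9 were below 0 and 3 were past the limits, Mirlet7a-2, Mirlet7d and Mirlet7g. Over all probe sets 80.2% were below 0 and 17.9% past the limits lower. The median of the 10 was -0.29 as deposited and -0.11 after quantile normalization, when 9 were again below 0, against 51.0% of all probe sets, and 0 were past the limits. The exception in both forms was Mirlet7i, at 6.19 and 6.41 on control 1 and control 3 and 6.36 and 6.26 on ethanol 2 and ethanol 4, a difference of 0.01 and 0.21.

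Mirlet7a-2 had the largest difference among them. It read 5.68 on control 1, 5.57 on control 3, 5.29 on ethanol 2 and 5.03 on ethanol 4, so the groups did not overlap. The difference was -0.46 (SE 0.12, adjusted p 0.18), and -0.29 after normalization. Mirlet7d read 7.33, 7.55, 7.17 and 7.05 in the same order, a difference of -0.33 (SE 0.12) and of -0.15 after normalization. Mirlet7g, held by the histone methyltransferase subunit gene Wdr82, read 5.07, 5.08, 4.78 and 4.82, a difference of -0.28 (SE 0.08) and of -0.14 after normalization. These were the calls as deposited. All 3 were lost when ethanol 4 was left out and after quantile normalization.

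miR-99, miR-100 and miR-125 genes share clusters or host transcripts with let-7, and all 6 of them were below 0 in both forms. Mir125b-2 read 5.29, 5.26, 4.95 and 4.93 on control 1, control 3, ethanol 2 and ethanol 4 (difference -0.33, SE 0.08), Mir99a 5.82, 5.72, 5.55 and 5.33 (-0.33, SE 0.11) and Mir100 5.51, 5.44, 5.17 and 5.20 (-0.29, SE 0.09). After normalization the 3 differences were -0.18, -0.15 and -0.13. These 3 were past the limits as deposited, and Mir125b-1 at -0.25, Mir125a at -0.24 and Mir99b at -0.21 were not. Taken with the 10 let-7 and miR-98 genes they make 16 genes, a grouping made after the values were seen, of which 6 were past the limits lower and 15 below 0 in both forms, with medians of -0.29 and -0.12, beside 17.9% past the limits lower and 80.2% below 0 over all probe sets as deposited. The remaining 48 hairpin genes had 5 past the limits lower and 40 below 0, with a median of -0.12, and after normalization 20 below 0 and a median of 0.04. Over all probe sets 51.0% were below 0 after normalization. As the 16 were grouped after their values were seen, no conclusion is drawn from their contrast with the 48.

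By locus, the arrays differed in which samples were low. In the Mir99ahg transcript, whose 4 probe sets report 1 gene, the brightest probe set read 8.03 and 7.71 on control 1 and control 3 and 7.34 and 7.32 on ethanol 2 and ethanol 4. Its difference was -0.54 (SE 0.13, adjusted p 0.17) and -0.37 (SE 0.11, adjusted p 0.32) after quantile normalization, past the limits both times. A further 2 probe sets of Mir99ahg were past the limits as deposited, at -0.41 and -0.33, and the remaining one, at -0.39 (SE 0.17), was not. The ethanol arrays differed by at most 0.05 on these probe sets. Without control 1, ethanol 2 or ethanol 4 the normalized value of the brightest probe set, then -0.25, -0.39 and -0.35, was no longer past the limits. Mir99a, for which the transcript is named, lies at chr16:77598936-77599000 and Mirlet7c-1 follows at chr16:77599657-77599750, both on the plus strand; Mirlet7c-1 read 5.75, 5.20, 5.32 and 5.04 on control 1, control 3, ethanol 2 and ethanol 4, and its groups overlapped.

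Mir100hg, the transcript that carries Mir100, Mirlet7a-2 and Mir125b-1, read 9.05 and 8.98 on the controls and 8.89 and 8.75 on ethanol 2 and ethanol 4. Its difference of -0.19 (SE 0.10) was not past the limits and was smaller than those of the 3 hairpin genes within it, at -0.29, -0.46 and -0.25. On the X chromosome, Mirlet7f-2 and Mir98 were low on ethanol 2 alone. Mirlet7f-2 read 5.06 on ethanol 2 against 5.64 to 5.75 elsewhere. Mir98 read 6.54 there against 7.05 to 7.24, and both lie in Huwe1, a ubiquitin ligase gene with a difference of -0.07. In the cluster of Mir99b, Mirlet7e and Mir125a, the 3 differences were -0.21, -0.25 and -0.24, while Spaca6, the gene whose span holds them, had 0.08 (SE 0.10).

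**Figure D4:**
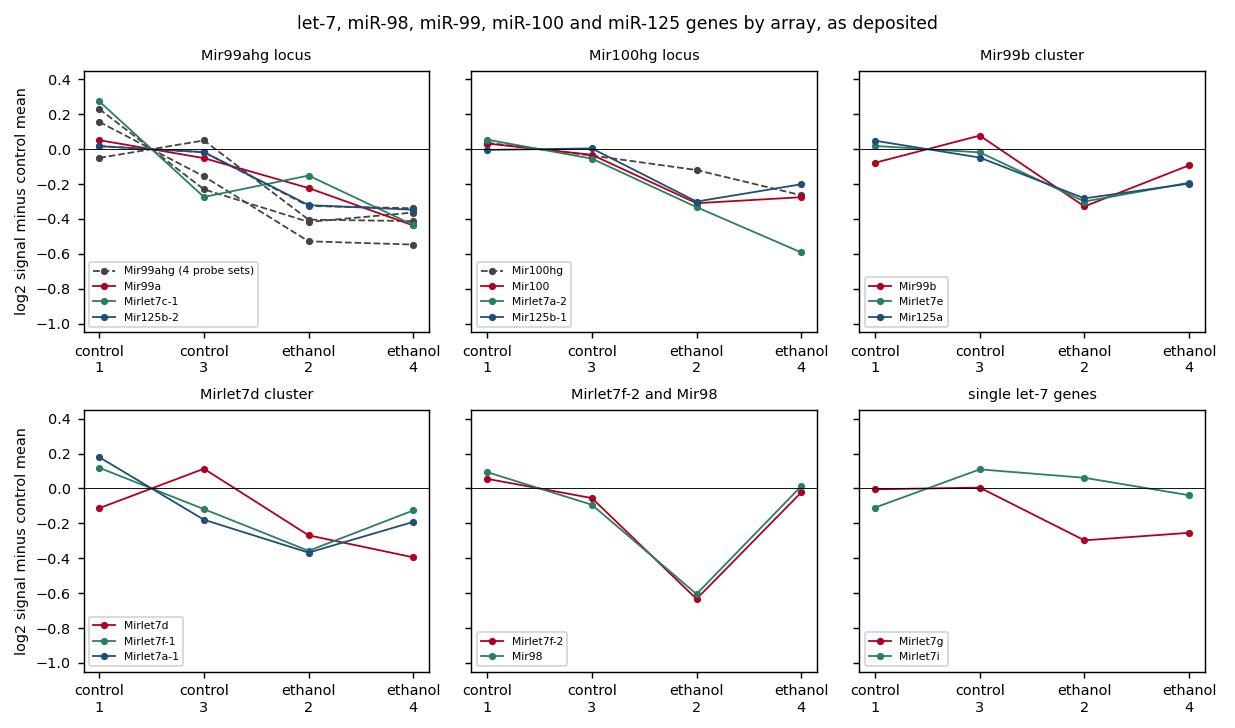
Log2 signal as deposited minus the mean of the 2 control arrays (vertical axis) on each of the 4 arrays (horizontal axis) for the let-7, miR-98, miR-99, miR-100 and miR-125 genes by locus, with dashed lines for host transcripts; lines only join the points of 1 probe set. Mirlet7f-2 and Mir98 are low on ethanol 2 alone, Mirlet7i is near 0 on all arrays, and the probe sets of Mir99ahg are low on both ethanol arrays.

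In 3 of the other 9 clusters, 1 hairpin was past the limits as deposited and its neighbours were not. In 5 all hairpins were below 0 and none was past the limits, and in that of Mir212 and Mir132 the values lay on both sides of 0. The contrasts between neighbours were not tested. In the cluster of Mir23a, Mir27a and Mir24-2 on chromosome 8, Mir27a read 6.06 and 5.70 on control 1 and control 3 and 5.49 and 5.38 on ethanol 2 and ethanol 4. Its difference was -0.44 (SE 0.15, adjusted p 0.20), past the limits, and -0.26 after normalization, not past them. Mir23a, the neighbour of Mir27a, read 5.95, 6.03, 5.95 and 6.23 in the same order, a difference of 0.10 (SE 0.12) as deposited and 0.30 after normalization. Mir24-2 read 5.20, 5.04, 5.01 and 5.40, with 0.08 and 0.23. The higher values of Mir23a and Mir24-2 rested on ethanol 4, without which their differences were -0.04 and -0.11.

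Mir222, which with miR-221 is known for repressing the cell cycle inhibitor Cdkn1b, read 5.59, 5.75, 5.35 and 5.28 on control 1, control 3, ethanol 2 and ethanol 4. Its difference was -0.36 (SE 0.10, adjusted p 0.18), past the limits as deposited, and -0.19 after normalization, not past them. Mir221, in the same cluster, read 6.12, 6.21, 6.09 and 6.15, with a difference of -0.05 (SE 0.09) and of 0.15 after normalization. In the cluster of Mir181a-2 and Mir181b-2, Mir181a-2 at -0.28 (SE 0.10) was past the limits as deposited and Mir181b-2, at 5.88, 5.89, 5.85 and 5.91, had a difference of 0.00. After normalization they had -0.08 and 0.18. Mir30a, the remaining hairpin gene past the limits, read 4.95, 4.83, 4.68 and 4.54, a difference of -0.28 (SE 0.10) and of -0.15 after normalization. The other 5 miR-30 genes were between -0.28 and -0.07 and not past the limits.

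The miR-9 genes and Mir338 lay above 0 with the arrays grouped by title and source name. miR-9 is made in neural progenitors and helps them to leave the cell cycle, and miR-338 is a miRNA of oligodendrocytes, the cells that form myelin. Mir9-3 read 5.52 and 5.48 on control 1 and control 3 and 5.56 and 5.68 on ethanol 2 and ethanol 4, and Mir338 read 6.73, 6.73, 6.77 and 6.88. They were the only 2 members whose ethanol arrays both lay above both controls as deposited. The differences were 0.11 (SE 0.09) and 0.10 (SE 0.09), not past the limits. After quantile normalization they were 0.29 (SE 0.08, adjusted p 0.31) and 0.30 (SE 0.09, adjusted p 0.31), past the limits. Mir9-3 was no longer past them when any 1 array was left out, with differences of 0.27 to 0.31, and Mir338 was past them only without control 3. Mir9-1, which gives the same mature strand, read 8.38, 8.74, 8.62 and 8.94, with a difference of 0.22 (SE 0.18), 0.35 after normalization, and overlapping groups. Grouped by the treatment entry, all 3 genes were below 0 as deposited, Mir9-1 at -0.34, Mir338 at -0.06 and Mir9-3 at -0.04, and Mir9-1 was at -0.12 on the pair of arrays whose labels agree.

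Genes of several other families were not past the limits in either form. Mir137, whose human counterpart lies at a locus associated with schizophrenia, read 6.44, 6.06, 5.96 and 5.65 on control 1, control 3, ethanol 2 and ethanol 4. Its difference was -0.44 (SE 0.18, adjusted p 0.24), the groups did not overlap as deposited, and after normalization it was -0.25 and they did. For miR-124, a miRNA abundant in neurons, Mir124a-2 had -0.11 as deposited and 0.04 after normalization, and Mir124a-3 -0.20 and -0.05. Mir138-2 and Mir138-1, which give a miRNA that limits dendritic spine size through Lypla1, had -0.39 (SE 0.16) and -0.26 (SE 0.16), and after normalization -0.19 and -0.05. Mir132 and Mir212, induced by neuronal activity, had 0.03 and -0.10, and after normalization 0.15 and 0.08. Mir219a-1 and Mir219a-2, of oligodendrocytes, had -0.03 and 0.03, and then 0.11 and 0.20. Mir29a and Mir29b-1 had -0.14 and -0.19, and then 0.04 and 0.02. Mir7-1, Mir7-2 and Mir7b had -0.11, 0.04 and -0.06, and then 0.03, 0.25 and 0.15. Mir29a was the most uneven between pools, at 5.28 on ethanol 2 and 6.01 on ethanol 4.

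Copies of 1 mature strand can be compared because RefSeq gives 12 pairs of hairpin genes with the same mature sequence. Their mean signals were from 0.19 log2 units apart, for Mir125b-1 and Mir125b-2, to 3.17 apart, for Mir181b-1 at 9.05 and Mir181b-2 at 5.88. Their differences between ethanol and control were from 0.06 apart, for the miR-219a pair, to 0.44 apart, for the miR-128 pair. As deposited, when 80.2% of all probe sets were below 0, both copies lay below 0 in 9 pairs, the miR-9 copies lay above it, and those of miR-7a and miR-219a lay on both sides. After quantile normalization the copies of miR-181b, miR-103 and miR-218 lay on both sides of 0 and those of the other 9 pairs on one.

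Many of these hairpins lie within the span of protein-coding genes, and the array measured both for 24 pairs of a member and a gene that holds it on the same strand, with 19 distinct holding genes. Across the 24 pairs, some of which share a holding gene, the 2 differences had a Pearson r of -0.18 as deposited and 0.00 after quantile normalization, and both were below 0 in 18 pairs. Holding genes were brighter, with a median signal of 8.97. The brightest probe set of each was used, and its position in the genome was not checked. For Nfyc, which holds Mir30c-1 and Mir30e, and Hnrnpk, which holds Mir7-1, the probe set number lies far from those of the hairpins. Whether the values of Nfyc and Hnrnpk come from the locus of the hairpin was not tested. As deposited 7 of the 19 were past the limits lower, or 36.8%, against 17.9% of all probe sets, and after quantile normalization 0 were. They were Rcl1 at -0.42, the axon guidance gene Slit2 at -0.38, the nuclear pore gene Nup93 at -0.34, Ctdspl at -0.32, the pantothenate kinase genes Pank3 at -0.32 and Pank2 at -0.29, and Nfyc at -0.28. None of the hairpin genes that these 7 hold was itself past the limits: Mir101b had -0.20, Mir218-1 -0.11, Mir138-2 -0.39, Mir26a-1 -0.15, Mir103-1 -0.07, Mir103-2 -0.25, and Mir30c-1 and Mir30e -0.17 and -0.23. In turn Aatk, a kinase gene that holds Mir338, had -0.23 where Mir338 had 0.10. A list of holding genes by name, with 20 names for 19 genes, lacks Nup93, Hoatz and Spaca6 and adds Ctdsp2, Ptprn and Aopep. All 19 were on the array, and 6 were past the limits lower. Without control 1, ethanol 2 or ethanol 4 that list had 1, 2 and 2 genes past the limits.

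**Figure D5:**
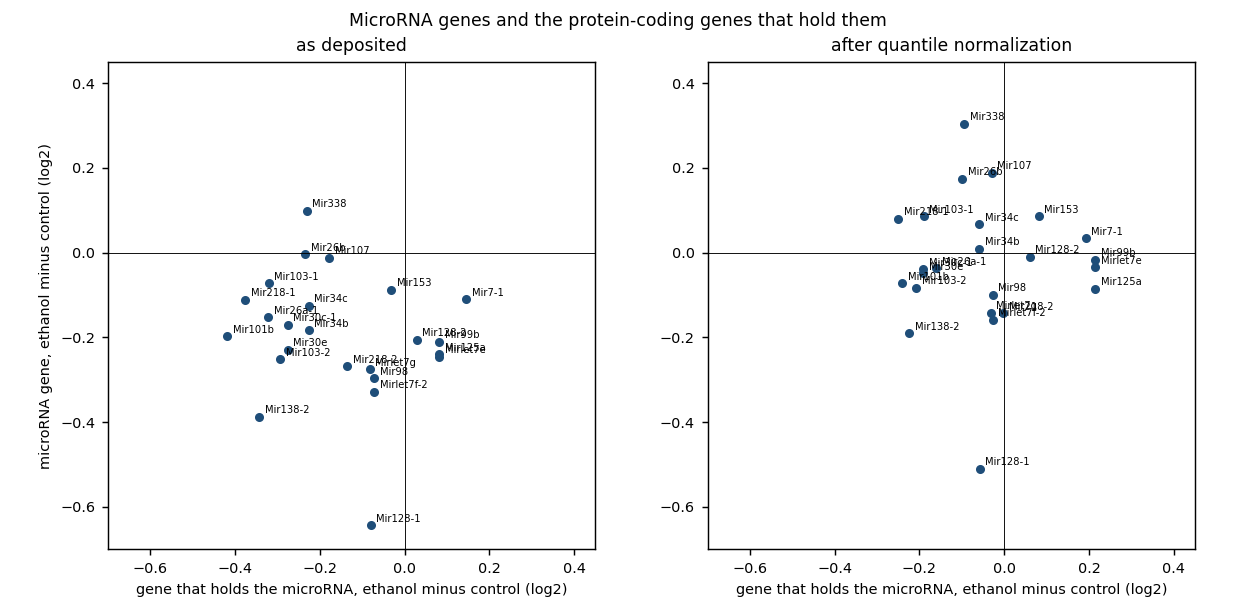
Difference between ethanol and control in log2 units of 24 hairpin genes (vertical axis) against that of the protein-coding gene that holds each (horizontal axis), as deposited on the left and after quantile normalization on the right; points are labelled by the hairpin gene. Mir128-1 and Mir338 lie farthest below and above the other points, and no common slope is seen.

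Genes that make or use miRNAs showed differences in the same direction as the arrays at large. Of 25 listed, 24 were measured, and 6 were past the limits lower and 0 higher, or 25%, against 17.9% of all probe sets in the lower direction, with a median of -0.13. After quantile normalization 2 were past them, or 8.33%, against 5.87%. Tarbp2, the partner of Dicer1, read 6.72 and 6.55 on control 1 and control 3 and 6.11 and 6.18 on ethanol 2 and ethanol 4, a difference of -0.49 (SE 0.10, adjusted p 0.17) and -0.29 after normalization. Ran, the GTPase that drives nuclear export of the hairpin, read 10.11, 9.89, 9.56 and 9.53, with -0.46 (SE 0.11, adjusted p 0.17) and -0.35. These 2 were past the limits in both forms. As deposited alone, so were Prkra, a further partner of Dicer1, at -0.37, the uridyltransferase gene Tut7 at -0.34, Tnrc6a, a silencing partner of Argonaute, at -0.32, and Dgcr8 at -0.32. Drosha at -0.25, Dicer1 at -0.10, the export receptor gene Xpo5 at 0.05 and Ago2 at -0.11 were not past the limits. Lin28a and Lin28b, which block let-7 maturation, had differences of -0.04 and -0.27 at signals of 5.37 to 6.06. Without control 1 or ethanol 4, 2 of the 24 genes were past the limits.

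Known targets of the families were read from a list of 34 genes, of which 29 were measured. Past the limits as deposited were 4 lower and 0 higher, or 13.8%, below the 17.9% of all probe sets, with a median of -0.14. They were Lypla1, a depalmitoylase and target of miR-138, at -0.49 (SE 0.09), the Notch effector Hes1, a target of miR-9, at -0.44 (SE 0.08), the DNA methyltransferase Dnmt3a, a target of miR-29, at -0.37 (SE 0.11), and Nras, a target of let-7, at -0.30 (SE 0.10). Lypla1 read 9.73 and 9.67 on the controls and 9.17 and 9.24 on ethanol 2 and ethanol 4, and it was the only target past the limits after quantile normalization, at -0.38. Without ethanol 2, 2 of the 29 were past the limits. Other let-7 targets, Hmga2 at -0.14 and Trim71 at 0.02, and Ptbp1, a splicing repressor and target of miR-124, at 0.13, were not past the limits.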

How the data were processed

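Whole-brain RNA of 4 pools was hybridized to Affymetrix Mouse Gene 1.0 ST arrays. By the paper, probes were summarized by RMA with GC adjustment and quantile normalization in Partek (6.6 in the submitters' notes). Log2 values of 35556 probe sets were deposited. The deposited arrays did not share 1 distribution, with medians from 6.33 to 6.61, and the reason was not tested. Symbols came from the platform annotation, and coordinates and sequences from RefSeq tables of GRCm38.p6. Values entered the fit unaltered, and in a second form after quantile normalization of the 4 arrays. limma 3.58.1 (R 4.3.3) was fitted over all probe sets, with 2 residual degrees of freedom and a prior of 2.57, and p-values were adjusted by Benjamini-Hochberg. The number of arrays limits the precision. Alternatives are given in the closing section; those that combine quantile normalization with another change were chosen after seeing the data. The members and lists were chosen with earlier results of these data known, and a list took the brightest probe set of each gene. Named members were those past the limits in either form, the 5 highest and 5 lowest differences and signals, and copies of their mature strands. Stated families, genes that hold named members, and listed genes past the limits were named too. Other let-7, miR-7, miR-30, miR-98, miR-99, miR-125 and miR-221 genes and listed genes were named after their values were seen. Simulated data were also run through the procedure, but without a shift between arrays. They therefore do not show how many calls such a shift gives.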

Additional observations from a re-analysis of the deposited data

How the results depend on the processing

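Only 4 pools were measured and most hairpin genes were dim, so differences of the size seen here, with a median standard error of 0.11, could rarely be told from the spread. The cause of each change was not tested. Apart from quantile normalization alone, the share of all probe sets past the limits is not given for the settings below. Their counts therefore cannot be set against the array at large. By the treatment entry, 0 members were past the limits lower and 0 higher, the median difference was 0.0027, and the 3 lists (processing and effector genes, holding genes, known targets) had 0 each. With arrays centred on their medians, 2 members were past the limits lower and 2 higher, the median was 0.014, and the lists had 1, 1 and 2. With quantile normalization there were 2 lower and 2 higher, a median of -0.039, and 2, 0 and 1 in the lists, and with the treatment entry as well 0 lower and 1 higher. A 1.5-fold limit left 1 member lower and 0 in each list, and the methods' test left 5 members lower and 2 known targets. Leaving out 1 array at a time gave 5 to 17 members lower, 0 higher, and medians of -0.24 to -0.13, 2 to 6 processing and effector genes, 1 to 5 holding genes and 2 to 5 known targets. After quantile normalization it gave 0 to 4 lower and 0 to 4 higher. Relative to all probe sets, the median of the members was between -0.07 and -0.01 in every setting that changed 1 choice.

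Although littermates were matched between treatments, the labels do not say which pools match, and the replicate numbers differ between groups. Both pairings were therefore run as a replicate block. Pairing control 1 with ethanol 2 gave 13 members lower, and pairing control 1 with ethanol 4 gave 11, with 11 and 10 of the 14 retained; Mir137 was among those added by the first pairing, and Mir218-2 was added by the second. A minimum mean log2 of 5 kept 12 members lower, all those that could be tested, and an intensity trend gave 13. No members shared the same values on all arrays, so counting each distinct profile once could not change the count of 14. Of these 14, 3 are probe sets of Mir99ahg.

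Over all 69 members, 42 turned to the other side of 0 by the treatment entry and 20 with quantile normalization, all 20 of them upward. Among the 34 probe sets recomputed one by one, direction turned for these. By the treatment entry, differences became 0.015 for Mir100, 0.11 for Mir100hg, 0.030 for Mir125b-2, 0.078 for Mir128-1, 0.34 for Mir137, 0.094 for Mir181a-1, 0.083 for Mir181a-2, 0.015 for Mir218-2, 0.061 for Mir26a-1, 0.24 for Mir27a, 0.13 for Mir30a, 0.16 for Mir99a, 0.17 and 0.024 for 2 probe sets of Mir99ahg and 0.18 for Mirlet7a-2. They became -0.18 for Mir23a, -0.11 for Mir24-2, -0.058 for Mir338, -0.16 for Mir7-2, -0.34 for Mir9-1 and -0.039 for Mir9-3. With arrays centred on their medians they became 0.020 for Mir100hg, 0.014 for Mir101b, 0.0062 for Mir128-2, 0.063 for Mir181a-1, 0.21 for Mir181b-2, 0.18 for Mir181d, 0.10 for Mir218-1, 0.059 for Mir26a-1 and 0.10 for Mir7-1. With quantile normalization they became 0.18 for Mir181b-2, 0.11 for Mir181d, 0.079 for Mir218-1 and 0.034 for Mir7-1. On the pair of arrays whose labels agree, ethanol 2 and control 3, they were -0.073 for Mir23a, -0.032 for Mir24-2, -0.13 for Mir7-2 and -0.12 for Mir9-1. When 1 array was dropped, the single array that remained in its group was taken to vary like the others. Differences then ran from -0.10 to 0.15 for Mir132, -0.030 to 0.023 for Mir181b-2, -0.15 to 0.094 for Mir181d, -0.035 to 0.24 for Mir23a, -0.11 to 0.28 for Mir24-2 and -0.14 to 0.22 for Mir7-2.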
